A study of Mus musculus with 3 samples.

Results

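Steroid receptors, steroid-converting enzymes and glucocorticoid target genes were followed through 3 cell fractions of mouse epididymal fat. The 9 genes were the receptors Nr3c1, Nr3c2, Esr1 and Pgr, the enzymes Hsd11b1 and Akr1c18, and Fkbp5, Tsc22d3 and Per1, whose transcription responds to glucocorticoids. They were found by their gene names on the arrays and had 26 probes, of 37073 genes and 56605 probes in all. Of the 26 probes, 15 were well above background on at least 1 array and 13 on all 3.

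Epididymal fat of male C57/BL mice aged 20 weeks was digested with collagenase, and a spin at 9 g for 1 s left SVC, the stromal vascular cells, in the lower phase. The cells that floated were spun again at 226 g for 3 min, which gave SPA, the small proliferative adipocytes, in the sediment and MWA, the mature white adipocytes, on top. SVC and SPA were cultured in DMEM to 90% confluence before RNA extraction, and no culture is described for MWA. RNA of each fraction was measured on 1 Agilent 1-colour array, so no difference has a replicate check, no test was run, and the number of mice behind an array is not given in the sources used here. All groups share strain, sex, age and depot. The title of the MWA sample carries another date than the titles of SVC and SPA, which share one, and what the dates stand for is not stated. Cell type, culture and that date cannot be told apart between MWA and SPA.

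Glucocorticoids enter cells and bind the glucocorticoid receptor, the product of Nr3c1, which leaves its chaperone complex, moves to the nucleus and acts on genes that carry its binding sites. Enzymes inside the cell set how much active hormone reaches a steroid receptor. Hsd11b1 turns inactive 11-dehydrocorticosterone into corticosterone, a ligand of this receptor, and Akr1c18 turns progesterone into a weakly active 20-alpha-reduced form, which concerns the progesterone receptor. In fat, glucocorticoids are known for acting on lipolysis, on lipid storage and on the differentiation of preadipocytes.

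Values are levels, which are log2 of the processed signal minus log2 of the signal at the 75th percentile of that array. This percentile was 430 for SVC, 439 for SPA and 366 for MWA as signal. A level of 0 is the 75th percentile, and levels were compared between arrays within 1 probe only. The scanner software gave an error for bright spots that is 0.20 on the log2 scale for a ratio, and this covers the error within an array only. For bright probes it was close to 10% of the signal on every array. Probes well above background and spotted repeatedly had a median log2 SD between spots of 0.038 (SVC), 0.040 (SPA) and 0.046 (MWA). Each gene was read at whichever of its probes was brightest on average, and its other probes are given beside that one. Probes well above background reached down to levels of -4.95 on the SVC array, -5.14 on the SPA array and -5.15 on the MWA array.

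The fractions were set against marker genes. The adipocyte markers Adipoq, Plin1, Cidec, Lep and Fabp4 had a summed level, in units of the 75th percentile, of 5.86 for SVC, 50.2 for SPA and 1908 for MWA. In SVC and SPA the sum was carried mainly by Fabp4, and Adipoq and Plin1 were not well above background in SVC. From SVC to SPA, 4 of the 5 were at least 5-fold higher, while Lep was 1.19-fold higher. The sum of 5 macrophage markers was 525 for SVC, 583 for SPA and 175 for MWA, a sum carried mainly by Lyz2. Cd68 was 1.84-fold higher in SPA relative to SVC and C1qa 9.12-fold lower. The sum of 5 stromal progenitor markers was 210.3, 106.6 and 274.6, but they did not move together, since Pdgfra and Pdgfrb were 4.14-fold and 2.68-fold lower in MWA relative to SPA while Cd34 and Dcn were 7.66-fold and 3.90-fold higher. The sum of 5 mesothelial markers was 19.1, 5.63 and 19.4. The sum of 5 endothelial markers was 2.09, 2.34 and 27.4, and that of 4 red cell markers was 0.313, 0.349 and 663, so endothelial and red cell markers were higher in MWA than in both cultured fractions. None of 4 markers of epididymal epithelium was well above background on any array, and the sum of 5 lymphocyte markers was 3.52, 3.79 and 4.69. That sum was carried mainly by Cd3e, which was 1.06-fold lower in MWA relative to SPA. Cd3g and Nkg7 were well above background in MWA alone, Nkg7 at least 38.7-fold above SPA. Ms4a1 was 1.95-fold lower in MWA at its brightest probe, but its 2 probes gave log2 ratios from -0.97 to 2.78. Cd79a was not well above background on any array.

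Between SVC and SPA, few of the genes differed. Akr1c18 and Hsd11b1 were at least 2-fold higher in SPA, and none of the 8 genes with a reading was at least 2-fold lower. Of all 22663 genes tested, 3.9% were at least 2-fold higher and 3.25% at least 2-fold lower. Akr1c18 was also at least 5-fold higher, where 0.322% of all genes were, and none was at least 5-fold lower, where 0.353% were. The median log2 ratio of the 8 genes was 0.34, against 0.05 for all genes measured on both arrays.

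Between SPA and MWA, all 8 genes with a reading differed at least 2-fold, 7 upward and 1, Akr1c18, downward. Of all 23956 genes tested, 15.8% passed 2-fold upward and 17.9% downward. Nr3c2, Tsc22d3 and Per1 were at least 5-fold higher, where 5.49% of all genes were, and Akr1c18 was at least 5-fold lower, where 3.98% were. The median log2 ratio was 1.97 for the 8 genes and -0.08 for all genes measured on both arrays. Each array holds the RNA of many cells, so fewer cells of a type and less RNA per cell cannot be told apart. Both comparisons share the SPA array, so their ratios are not independent of each other.

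**Figure D1:**
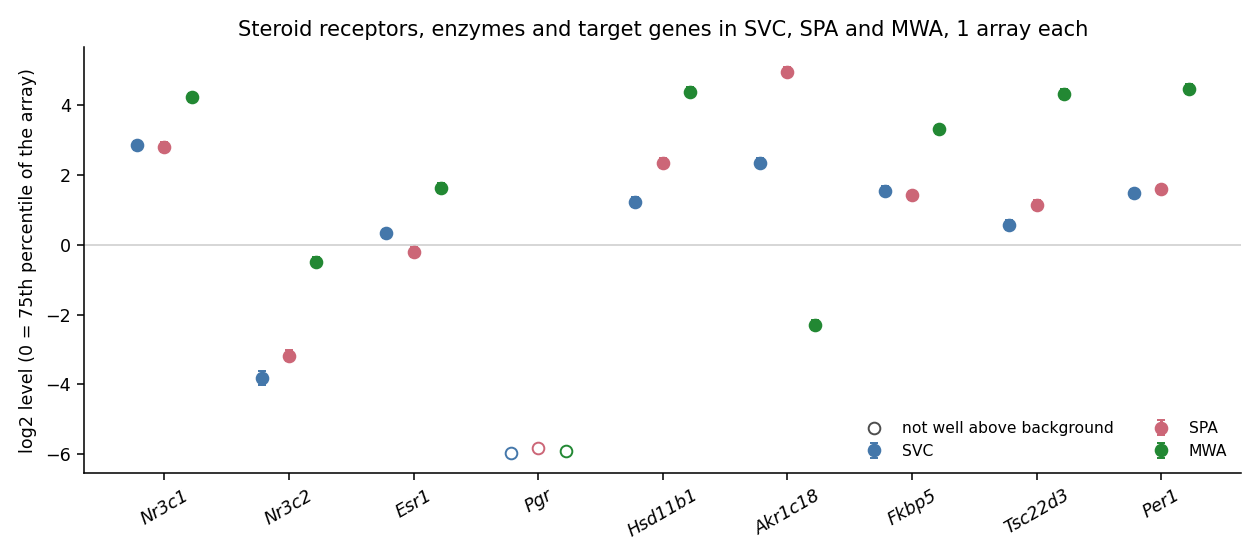
Levels of the 9 genes at their brightest probes in SVC, SPA and MWA, on the log2 scale with 0 at the 75th percentile of the array. Points are 1 array each, bars are the error given by the scanner software, and open points are not well above background. 7 of the 8 genes with a reading were highest in MWA, and Akr1c18 was highest in SPA and lowest in MWA.

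Nr3c1, the glucocorticoid receptor, was bright on all 3 arrays. Its level was 2.85 for SVC, 2.80 for SPA and 4.22 for MWA at a probe on chromosome 18 from 39588272 to 39588331 (mm9, minus strand). SVC and SPA lay within the scanner error of each other, with a log2 ratio of -0.05, and MWA was 2.69-fold above SPA. The second probe of Nr3c1 read 2.66, 2.81 and 3.84, and its MWA level was 2.05-fold above SPA. Both probes gave the same order of MWA over the cultured fractions, although the second only just passed 2-fold.

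Nr3c2, the mineralocorticoid receptor, which also binds corticosterone, was dim in the cultured fractions. At a probe on chromosome 8 from 79768704 to 79768763 (plus strand) its level was -3.82 for SVC, -3.18 for SPA and -0.48 for MWA. The signal in MWA was 6.46-fold that in SPA and 10.1-fold that in SVC. A second probe was well above background in MWA alone and was at least 4.35-fold higher there than in SPA, and the third was not well above background on any array. The raw signal at the first probe was 2.12 times the local background in SVC and 2.67 times in SPA. The normexp background correction moved its log2 ratio of MWA over SPA from 2.69 to 1.70, under 5-fold.

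Esr1, the oestrogen receptor alpha, had 7 probes, of which 3 were well above background on all arrays. Its brightest probe, on chromosome 10 from 5341167 to 5341226 (minus strand), had levels of 0.33 for SVC, -0.21 for SPA and 1.62 for MWA. SPA was the lowest of the 3 fractions at each of these 3 probes, 1.45-fold below SVC at the brightest. MWA was 3.55-fold above SPA at the brightest probe and 2.70-fold and 2.42-fold above it at the other probes read on all arrays. Another probe was well above background in MWA alone, at a level of -4.71, and gave a lower bound of 1.35-fold. The median over all 7 probes gave this bound too, a log2 ratio of at least 0.43, so the 2-fold difference of Esr1 rests on the 3 bright probes.

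Pgr, the progesterone receptor, was not well above background on any array at any of its 4 probes. The levels of its brightest probe were -5.98, -5.82 and -5.92, all below the limit set by the dimmest probes read. This probe lies on the minus strand of chromosome 9, from 8898921 to 8898980, while the others lie on the plus strand. No RefSeq transcript is annotated to it, so its levels cannot be assigned to Pgr with certainty. No fold can be given for Pgr, and the arrays set only an upper limit to it.

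The list of 14 nuclear and membrane steroid receptors held 10 genes besides these. Of those 10, 4 were at least 2-fold higher in MWA relative to SPA and none was at least 2-fold lower, and none passed 2-fold between SVC and SPA. Among all genes, 15.8% were higher and 17.9% lower in MWA relative to SPA. From SVC to SPA the shares were 3.9% upward and 3.25% downward. Gper1, a membrane receptor for oestrogen, was 2.14-fold higher in MWA. The progestin and adipoQ receptor Paqr9 had no reading above background in SVC and levels of -4.14 in SPA and 2.01 in MWA, a 71.1-fold difference. Paqr6 was 5.47-fold higher in MWA at its brighter probe, with levels of -3.22, -3.96 and -1.51, and its 2 probes gave log2 ratios from 1.10 to 2.45. Esr2, the oestrogen receptor beta, was 1.27-fold lower in MWA.

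**Figure D2:**
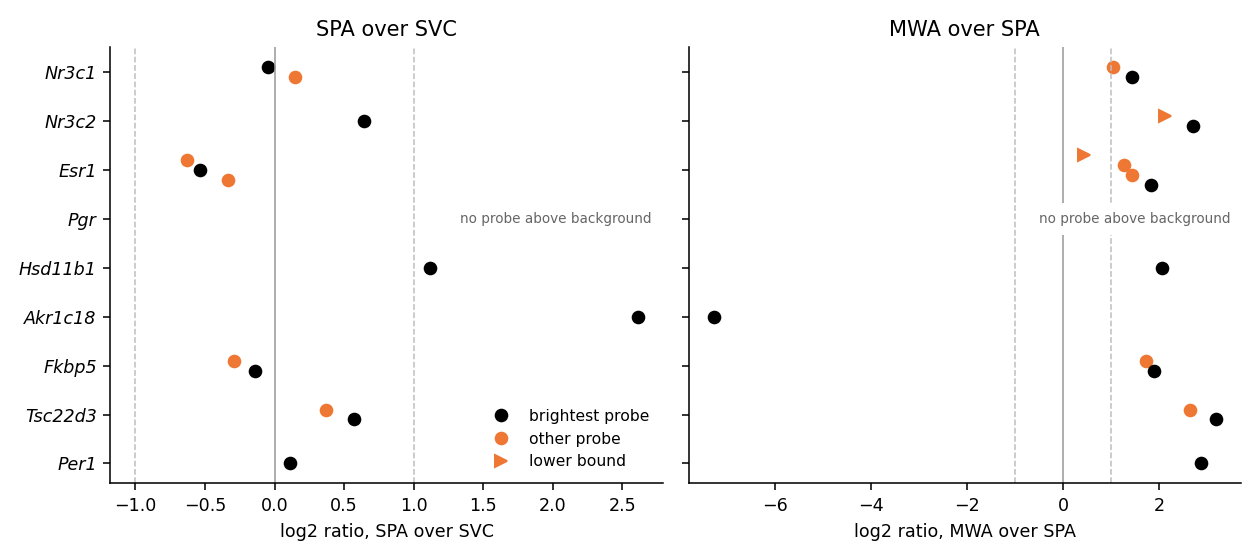
Log2 ratios of each probe that was read, for SPA over SVC (left) and MWA over SPA (right). Black points are the brightest probe of a gene, orange points other probes, triangles lower bounds, and dashed lines 2-fold. Probes of 1 gene lay on the same side of 0 in MWA over SPA for every gene with more than 1 probe read, and Pgr had none.

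Hsd11b1 rose in steps over the fractions. Its level was 1.23 for SVC, 2.34 for SPA and 4.39 for MWA at its single probe, on chromosome 1 from 195048169 to 195048228 (minus strand). SPA was 2.17-fold above SVC, close to the 2-fold limit, and MWA was 4.14-fold above SPA and 8.97-fold above SVC. H6pd, which supplies the NADPH that the Hsd11b1 enzyme uses in the endoplasmic reticulum, had levels of 4.14, 4.33 and 5.14 and was 1.75-fold higher in MWA relative to SPA. Hsd11b2, which runs the opposite reaction, was well above background in SPA alone, at a level just above the limit. The adipocyte marker sum rose in the same order as Hsd11b1, and its part in the result was not tested.

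Akr1c18, the 20-alpha-hydroxysteroid dehydrogenase, was the exception among the 8 genes. Its signal was 2203 for SVC, 13725 for SPA and 73.7 for MWA, which are levels of 2.36, 4.97 and -2.31. It was 6.11-fold higher in SPA relative to SVC and 155-fold lower in MWA relative to SPA, and all 3 arrays measured it well above background. Of 23953 genes with a ratio of MWA over SPA, 15 had a lower one, and of 22548 with a ratio of SPA over SVC, 52 had a higher one. MWA was also 25.4-fold below SVC. After the normexp correction the log2 ratio of MWA over SPA was -6.53 in place of -7.28. Its single probe, on chromosome 13 from 4131895 to 4131954 (minus strand), is annotated to 2 RefSeq transcripts, of which 1 was found in the reference gene table and is Akr1c18. Of the 5 macrophage markers, 3 were at least 2-fold lower in MWA relative to SPA, Cd68 the most at 8.58-fold, and C1qa was 11.3-fold higher. Their part in the result was not tested.

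Of the other Akr1c family members, 3 were also highest in SPA, with smaller differences. Akr1c14, which reduces steroids at the 3-alpha position, had levels of -2.95, -0.58 and -2.66, and was 5.15-fold higher in SPA relative to SVC and 4.23-fold lower in MWA relative to SPA. Akr1c13 had levels of 1.77, 3.09 and 1.88, and was 2.50-fold higher in SPA and 2.32-fold lower in MWA. The probe named Akr1c12 read 0.31, 1.56 and 0.43, but it is annotated to transcripts of both Akr1c12 and Akr1c13 and cannot be assigned to one of them. In MWA these 3 probes lay near their SVC levels, whereas Akr1c18 lay far below. Akr1c6 and Akr1c19 were dim and not highest in SPA, and Akr1c20 and Akr1c21 were not well above background on any array.

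Of 44 steroid-converting enzymes on the arrays, 32 were well above background on at least 1 array and 23 on all 3. Without Hsd11b1 and Akr1c18, 4 were at least 2-fold higher and 2 at least 2-fold lower in SPA relative to SVC, of 27 tested. Among all genes, 3.9% and 3.25% were. The 4 were Akr1c12, Akr1c13, Akr1c14 and Hsd3b1, and the Akr1c12 probe is also annotated to Akr1c13. In MWA against SPA, 5 were at least 2-fold higher and 6 at least 2-fold lower, of 29 tested, with a median log2 ratio of 0.49. The shares of MWA against SPA lie near the 15.8% and 17.9% of all genes. Sult1e1, the oestrogen sulfotransferase, was well above background in MWA alone, at a level of 2.91, and was at least 264-fold higher there than in SPA. Hsd3b1, which forms progesterone from pregnenolone, had a level of -4.39 in SVC and -2.65 in SPA, and was at least 5.66-fold lower in MWA. Star, which carries cholesterol into mitochondria, had levels of -1.29, -0.54 and -2.84, and was 4.90-fold lower in MWA relative to SPA. Cyp7b1, which hydroxylates oxysterols and steroids, was highest in SVC, with levels of -0.72, -2.24 and -3.15. Cyp11a1, the enzyme that makes pregnenolone from cholesterol, Cyp11b2, the aldosterone synthase, and Cyp19a1, the aromatase, were not well above background on any array. Cyp17a1 and Cyp21a1 were well above background on all 3 arrays, and Cyp11b1 was in SVC and SPA. Cyp17a1 had levels of 4.43, 4.46 and 4.12 at its single probe. Cyp21a1 read -2.30, -2.37 and -0.95, and its 2 probes gave log2 ratios of MWA over SPA from -0.25 to 1.41. Cyp11b1 was dim, at -3.51 in SVC and -4.70 in SPA. Which transcripts the probes of these enzymes match was not checked.

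**Figure D3:**
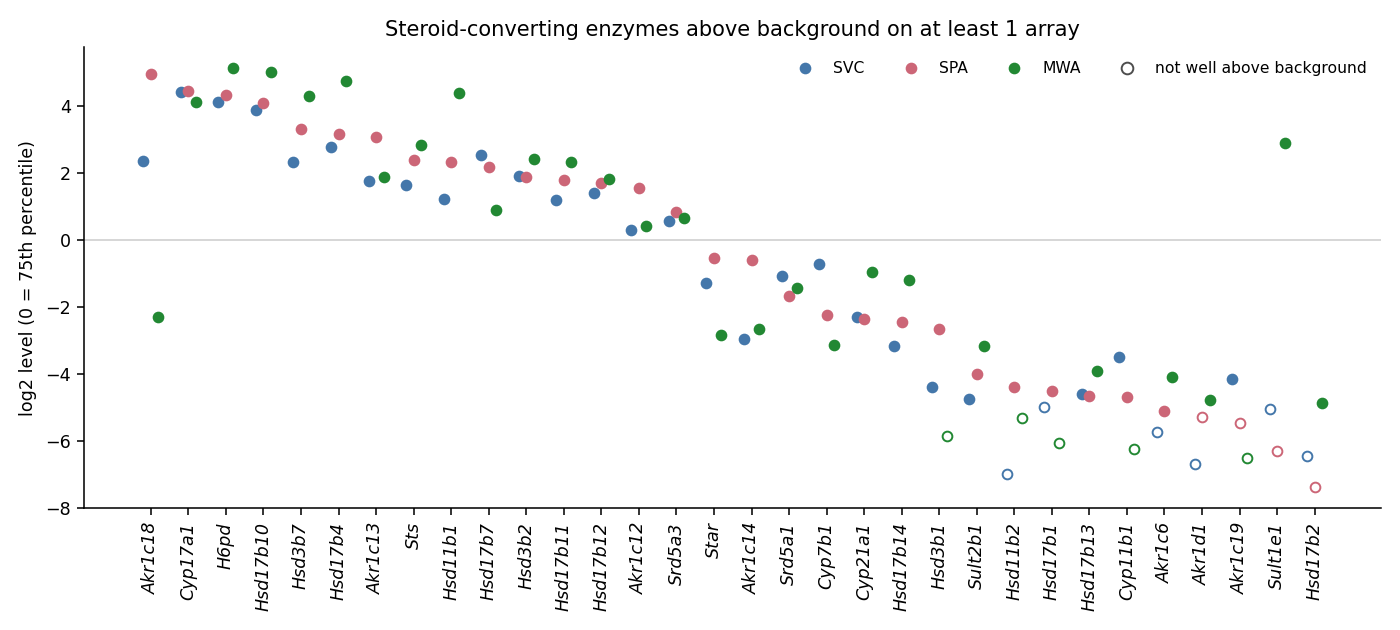
Levels of the 32 steroid-converting enzymes that were well above background on at least 1 array, ordered by their level in SPA, on the log2 scale with 0 at the 75th percentile of the array (1 array a fraction). Open points are not well above background. Akr1c18 was highest in SPA and lowest in MWA, Sult1e1 was read in MWA alone, and Hsd11b1 rose from SVC to SPA to MWA. Levels compare within a gene only.

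The glucocorticoid target genes Fkbp5, Tsc22d3 and Per1 were higher in MWA than in both cultured fractions, and SVC and SPA differed by at most 1.49-fold. The 250 bases before a transcription start of each gene are shown as background on these target genes. What raised them in MWA was not tested. The sequences are from RefSeq on GRCm38.p6, a later build than the mm9 of the probe positions. Of the 9 genes, 8 had an entry, with 12 starts in all, of which 1 per gene is printed here, chosen after the search as the start with a match to one of the motifs in capitals. The capitals mark CACGTG, the E-box, and TGTTCT, the half-site of the glucocorticoid response element.
Per1, chr11:69098699-69098948, plus strand: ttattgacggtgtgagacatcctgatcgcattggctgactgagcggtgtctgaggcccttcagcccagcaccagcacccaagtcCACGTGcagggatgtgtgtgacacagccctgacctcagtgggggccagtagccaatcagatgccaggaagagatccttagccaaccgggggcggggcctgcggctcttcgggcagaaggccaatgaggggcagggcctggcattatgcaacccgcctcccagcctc
Fkbp5, chr17:28486150-28486399, minus strand: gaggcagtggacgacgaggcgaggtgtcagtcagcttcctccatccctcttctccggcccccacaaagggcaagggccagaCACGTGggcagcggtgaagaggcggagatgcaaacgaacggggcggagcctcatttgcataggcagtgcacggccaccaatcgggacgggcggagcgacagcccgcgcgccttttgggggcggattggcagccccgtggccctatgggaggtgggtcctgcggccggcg
Tsc22d3, chrX:140600523-140600772, minus strand: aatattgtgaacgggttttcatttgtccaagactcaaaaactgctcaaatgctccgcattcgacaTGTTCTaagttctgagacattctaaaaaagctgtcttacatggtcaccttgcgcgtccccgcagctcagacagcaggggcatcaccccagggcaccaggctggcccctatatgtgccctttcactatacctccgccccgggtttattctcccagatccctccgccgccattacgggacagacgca
Both strands were searched. CACGTG was found 166 bases before the printed start of Per1 and 169 bases before that of Fkbp5. The E-box was in 2 of the 12 starts, the other start of Per1 lacked it, and 6.02% of all 32851 promoters held it. TGTTCT was found 185 bases before the start of Tsc22d3, and 16.1% of all promoters held it. It was in 1 of the 12 starts, and the other starts of Tsc22d3 lacked it. The full palindrome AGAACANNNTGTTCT, which contains the half-site, was in 0.00913% of all promoters and in none of the 12. TGACG, the half-site of the cyclic AMP response element, was in 3 of the 12 starts, of Per1 and Tsc22d3, and in 17.8% of all promoters, and CCAAT was in 7 of the 12 and in 33.8% of all. A match is a run of letters and not a bound site, and these windows leave out more distant sites.

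Fkbp5 encodes an immunophilin of the receptor's chaperone complex that lowers the affinity of the receptor for hormone. Its level was 1.55 for SVC, 1.41 for SPA and 3.31 for MWA at a probe on chromosome 17 from 28536060 to 28536119 (minus strand). MWA was 3.72-fold above SPA, and at this probe SVC and SPA lay within the scanner error of each other. A dimmer probe read -1.46, -1.75 and -0.02 and gave 3.32-fold for MWA over SPA. Its log2 ratio of SPA over SVC was -0.29, past the scanner error of 0.21. The third probe was not well above background on any array.

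Tsc22d3, which encodes the glucocorticoid-induced leucine zipper, had levels of 0.56 for SVC, 1.14 for SPA and 4.32 for MWA at a probe on chromosome X from 137074094 to 137074153 (minus strand). It was 1.49-fold higher in SPA relative to SVC and 9.06-fold higher in MWA relative to SPA. A second probe read 0.10, 0.47 and 3.11, a 6.21-fold difference between MWA and SPA, and the third was not well above background. Of the 9 genes, Tsc22d3 had the largest ratio of MWA over SPA and of MWA over SVC, which was 13.5-fold.

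Per1 encodes a period protein of the circadian clock and is also induced by glucocorticoids. Its level was 1.47 for SVC, 1.58 for SPA and 4.46 for MWA at a probe on chromosome 11 from 68923364 to 68923423 (plus strand). MWA was 7.34-fold above SPA, and SVC and SPA lay within the scanner error of each other. The second probe was not well above background on any array. Of 14 other core clock genes above background in MWA or SPA, 10 passed 2-fold upward in MWA and 2 downward. The shares of all genes were 15.8% and 17.9%. Per2, Hlf, Dbp and Nr1d1 were 24.7-fold, 10.2-fold, 8.55-fold and 7.72-fold higher, although the second probe of Per2 had a log2 ratio of 1.01, and Bhlhe41 and Arntl were 5.23-fold and 4.65-fold lower.

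The list of 30 glucocorticoid target genes held 27 besides these 3. Of the 27, 18 were at least 2-fold higher and 2 at least 2-fold lower in MWA relative to SPA, and 9 were at least 5-fold higher and none at least 5-fold lower. Among all genes tested, 15.8% were at least 2-fold higher and 17.9% at least 2-fold lower. The shares past 5-fold were 5.49% and 3.98%. The median log2 ratio of the 27 was 2.14. Between SVC and SPA, 6 of the 27 were at least 2-fold higher in SPA and 2 at least 2-fold lower, with a median log2 ratio of 0.16. The shares of all genes there were 3.9% and 3.25%. Sult1a1, a phenol sulfotransferase, had levels of -3.19, -3.18 and 4.34, and was 184-fold higher in MWA relative to SPA. Pdk4, a kinase that inhibits pyruvate dehydrogenase, was 30.9-fold higher, with levels of -2.05, -1.68 and 3.27. Zbtb16, a zinc finger transcription factor, rose from -2.37 to -0.98 and 3.60, a first step of 2.63-fold and a second of 23.9-fold. The first step depended on the probe, since its 2 probes gave log2 ratios of SPA over SVC from 0.13 to 1.40. Lpin1, a phosphatidate phosphatase, rose from -2.19 to -0.70 and 3.19 at its brightest probe. Its 4 probes gave log2 ratios from 0.03 to 1.49 for SPA over SVC and from 2.50 to 3.89 for MWA over SPA. Lcn2, which binds siderophores, and Snai2, a transcription factor of mesenchymal cells, were 4.40-fold and 4.20-fold lower in MWA.

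**Figure D4:**
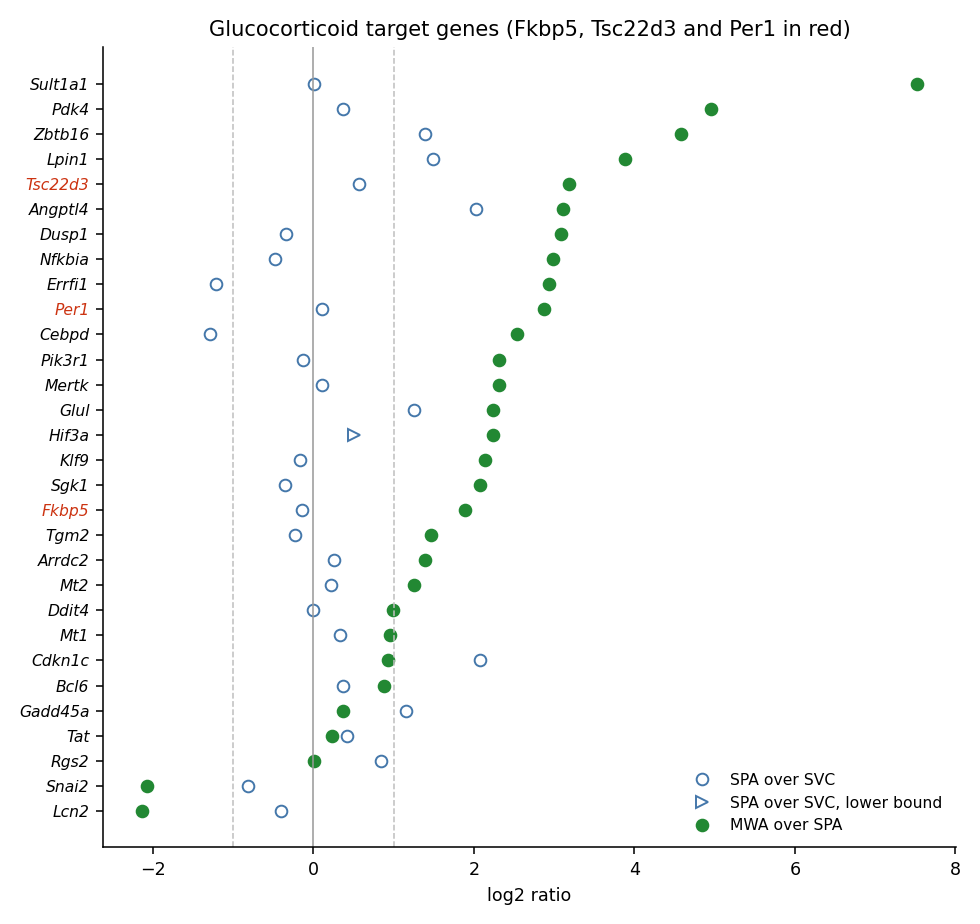
Log2 ratios of the 30 glucocorticoid target genes, sorted by MWA over SPA (filled) and with SPA over SVC beside it (open, with a triangle for a lower bound), from 1 array a fraction. Dashed lines are 2-fold. In MWA over SPA, 21 of the 30 genes lay at least 2-fold up and 2 at least 2-fold down, and Fkbp5, Tsc22d3 and Per1 were among the 21. The shares of all genes tested were 15.8% up and 17.9% down.

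In MWA over SPA, immediate-early genes moved upward with most of the glucocorticoid targets. Immediate-early genes are switched on within minutes by many stimuli, among them the handling of cells. In SPA over SVC, 1 of 18 was at least 2-fold higher and 3 at least 2-fold lower, with a median log2 ratio of -0.36. The shares of all genes were 3.9% and 3.25%. From SPA to MWA, 17 of the 18 passed 2-fold upward and 13 passed 5-fold, with a median log2 ratio of 3.28. Among all genes, 15.8% and 5.49% passed these limits upward. Fosb was 378-fold, Btg2 58.3-fold, Zfp36 50.3-fold and Nr4a1 44.3-fold higher. 1 gene, Dusp1, 8.50-fold higher, is on both lists. All 5 endothelial, all 4 red cell and 4 of 5 mesothelial markers were at least 5-fold higher in MWA too. The adipocyte marker sum was 50.2 in SPA and 1908 in MWA. The part of immediate-early genes, these markers and the culture of SPA in the ratios of Fkbp5, Tsc22d3 and Per1 was not tested.

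Of 12 chaperones of the receptor complex other than Fkbp5, 5 were at least 2-fold lower in MWA relative to SPA and 1 was at least 2-fold higher, with a median log2 ratio of -0.60. Ptges3, the co-chaperone p23, and Stip1, which links chaperones to each other, were 2.51-fold and 2.41-fold lower, and Dnajb1 was 3.90-fold higher. Of 12 coregulators, 3 were at least 2-fold higher and 1 at least 2-fold lower, with a median log2 ratio of 0.04. Nrip1, a corepressor of nuclear receptors, was 11.0-fold higher in MWA, with levels of -0.17, -0.03 and 3.43. Among all genes, 15.8% were at least 2-fold higher and 17.9% at least 2-fold lower in MWA relative to SPA. No gene of either list passed 2-fold between SVC and SPA, where 3.9% of all genes were higher and 3.25% lower in SPA.

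Of 16 oestrogen and progesterone target genes other than Pgr, 7 were at least 2-fold higher and 5 at least 2-fold lower in MWA relative to SPA, with a median log2 ratio of 1.02. The shares of all genes were 15.8% and 17.9%. Wisp2, which encodes a secreted matrix-associated protein, had levels of 2.68, 2.88 and -1.95, and was 28.5-fold lower in MWA relative to SPA. Nrip1 and Errfi1, which are also on the lists above, Foxo1 and Cxcl12 were at least 5-fold higher, but the 2 probes of Cxcl12 gave log2 ratios from -0.49 to 2.41. In SPA against SVC, 2 of the 16 were at least 2-fold higher and 4 at least 2-fold lower, where 3.9% and 3.25% of all genes were.

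The genes with the most similar patterns were found by the Euclidean distance between the pairs of log2 ratios, SPA over SVC and MWA over SPA, over the 3 arrays and 19864 genes. For Akr1c18 no gene lay within a distance of 0.5, and the nearest were an unnamed locus of chromosome 9 at 0.50, Rnf128 at 0.81 and Map7d2 at 1.03. For Hsd11b1, 64 genes lay within 0.5, with Tspan17, Car5b and Epor the nearest. The nearest genes were Ppp2r5a, Sema7a and Inmt for Tsc22d3, an unnamed locus of chromosome 15, Emcn and Ppapdc2 for Per1, and Cuedc1, H2-T10 and Ggn for Fkbp5. Emcn is one of the endothelial markers. For the receptors, they were Pcf11, Smim10l1 and an unnamed locus of chromosome 12 for Nr3c1, Fhit, 1700096K18Rik and Gm15420 for Nr3c2, and Tshz2, Paox and Yes1 for Esr1. Nr3c1 had 1026 genes within 0.5, Fkbp5 489, Esr1 292, Per1 203, Nr3c2 155 and Tsc22d3 103.

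**Figure D5:**
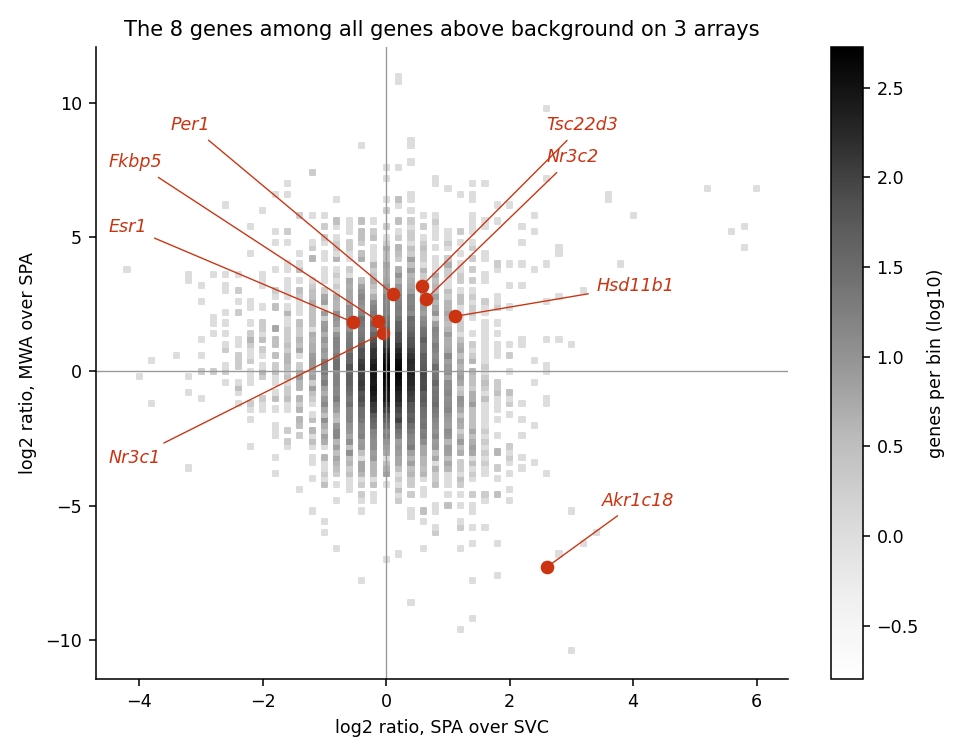
Log2 ratio of MWA over SPA against log2 ratio of SPA over SVC for all genes well above background on all 3 arrays, as genes per bin in grey, with the 8 genes in red. 7 of the 8 lay between 1.43 and 3.18 on the vertical axis, and Akr1c18 lay apart at 2.61 and -7.28.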

How the data were processed

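RNA of SVC, SPA and MWA was hybridised to 1 Agilent 1-colour array each. The authors deposited an intensity per spot, the processed signal of Agilent Feature Extraction 10.7.3.1, from which the background was subtracted and a spatial trend removed. They also deposited a ratio of that signal to a constant of each array. The analysis software of the study was GeneSpring GX, and its normalization and filter are not given in the sources used here.

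Control spots and outlier spots (75, 98 and 129 on the SVC, SPA and MWA arrays) were left out, and the spots of 1 probe were averaged after scaling each array to its 75th percentile. Where a probe was too dim on 1 array, its signal there was replaced by the dimmest signal read as well above background on that array, unless its own was higher, and the fold was written as a lower bound. A gene was tested where either array of the comparison was well above background, and a call was a fold or bound of at least 2 or 5. No p-value is given. The 8 gene lists and 8 marker lists, the 9 genes and the rule for named genes were chosen with earlier results of these data known. That rule named, of each list, genes changed at least 5-fold (up to 4 a direction) or otherwise the 2 with the largest ratio, and for each of the 9 genes read on all arrays the 3 nearest in pattern. Genes outside it were named after their values were seen. The values of 1 listed gene are not reported here. Probe positions and gene names are those of the array annotation (mm9). Alternatives were quantile normalization, normexp (offset 50), scaling on probes read on all arrays, the deposited ratios, plain ratios of dim probes, requiring both arrays to be above background, taking the median of a gene's probes, and dropping spots whose local background was outlying. The ratio steps were tested on simulated data. The software was R 4.3.3 (limma 3.58.1) and Python 3.11.15 (pandas 2.3.3, numpy 2.4.6, matplotlib 3.10.9).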

Additional observations from a re-analysis of the deposited data

How the results depend on the processing

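Of the counts of the 9 genes past 2-fold and 5-fold, in each direction and comparison, 1 changed by over 1.5 times under the 8 alternatives: the number past 5-fold upward from SPA to MWA was 3, and 1 with the median of the probes. Nr3c2 was then under 5-fold, and Per1 had no value because 1 of its 2 probes is dim. Of 63 log2 ratios of MWA over SPA recomputed for single genes, 5 moved by more than the scanner error and 0 changed sign among genes past 2-fold, and of 61 ratios of SPA over SVC, 2 moved. Hsd11b1 in SPA over SVC ranged from 1.03 to 1.12 and stayed past 2-fold. The genes past a fold on the lists of receptors, enzymes and glucocorticoid targets were counted under the same alternatives, a choice made after seeing the data, and the targets at least 2-fold higher in MWA ranged from 19 to 24, with 21 as reported. Other counts moved by over 1.5 times, given here with Hsd11b1, Akr1c18 and the other members included. From SPA to MWA, enzymes past 2-fold upward went from 6 to 3 with normexp and enzymes past 2-fold downward from 7 to 12 without the filter on dim probes. Receptors past 5-fold upward went from 3 to 1 with normexp and with the median of the probes, and enzymes past 5-fold from 1 upward and 2 downward to 0 and 1 where both arrays had to be above background. Over the alternatives, receptors past 2-fold downward from SPA to MWA ranged from 0 to 1 and enzymes past 5-fold upward from 0 to 2. From SVC to SPA, targets past 2-fold upward went from 6 to 3 with the median of the probes, and receptors from 0 to 1 without the filter. Enzymes past 2-fold downward went from 2 to 1 with normexp and 4 without the filter. Enzymes past 5-fold upward went from 2 to 1 with normexp and with scaling on probes read on all arrays. The normexp correction lowers the ratios of dim probes such as those of Nr3c2. No paired analysis was possible because each fraction has 1 array. The signal over background limits what can be read of Pgr, Nr3c2 and the dim enzymes, and 1 array a fraction limits all values.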
